A study of Ictalurus punctatus with 14 samples.

Results

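A set of 148 genes of the channel catfish, *Ictalurus punctatus*, is described here. Their share of the transcriptome fell from the embryo at 2 days post fertilization (dpf) to 5 dpf. It then fell over larval steps of 2 days up to 10 dpf, though not in every gene from each stage to the next. The stage mean was lower at all 6 neighboring steps in 82 of the 148 genes. The set was drawn from 23231 genes counted in 14 libraries of whole fish, with 2 replicate pools at 2 dpf and on each day from 5 to 10 dpf. All fish came from the Kansas random strain of one spawning program, were of unknown sex, without treatment groups, and were sampled as 4 fish per pool. The 2 dpf fish were embryos in the chorion, the 5 and 6 dpf fish still carried a yolk sac, and a starter diet was offered from 7 dpf, so that age, hatching and yolk use cannot be told apart at 5 against 2 dpf, nor age, yolk use and feeding where a comparison spans 7 dpf. Expression is given as CPM, the count of a gene scaled to an equal total for every library, which has no correction for gene length, so that levels are compared between stages and not between genes. A pair of values stands for replicates 1 and 2, in this order.

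The genes were selected on their own expression. A gene was kept when its mean was at least 10 CPM at 5 dpf and no higher at 5 than at 2 dpf, which left 5457 genes. Its score was the highest of the log2 ratios of means at 7 to 5, 9 to 7, 8 to 6 and 10 to 8 dpf, and 1613 genes had a score below 0. The 150 lowest scores were taken, and 2 of these genes, LOC108259527 (HCEA, a hatching enzyme) and gdf10a (a growth and differentiation factor), were set aside by name, which left 148. The falls along these 4 steps therefore describe how the genes were selected and were not tested. Near the limit, pa2g4b, timeless and dnmt3ba were inside with a score of -0.34, and rcc1, chek1 and pinx1 were outside with the same rounded score of -0.34, so the limit divides genes of nearly equal behavior.

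Growth by cell division requires new ribosomes. Ribosome biogenesis starts in the nucleolus, where precursor ribosomal RNA is transcribed, cut, chemically modified and assembled with ribosomal proteins by a large group of assembly factors, which leave the particle before it is used. Dividing cells also make nucleotides, copy their DNA in S phase and separate the chromosomes in mitosis with the spindle, the kinetochores and the cyclin-dependent kinases. In fish embryos the food is the yolk, whose lipids are packed into lipoproteins by the yolk syncytial layer and later by the liver.

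RefSeq names for the Coco_2.0 assembly could be matched to 145 of the 148 genes, and all 145 were annotated as protein coding. By textbook function, 32 genes belonged to ribosome biogenesis, here called ribosome assembly genes, 16 to mitosis and 16 to cell cycle entry, DNA replication and repair. A further 11 belonged to RNA processing and translation, 6 to lipid, yolk and plasma proteins and 4 to nucleotide metabolism. The groups also held 4 membrane transporters and 2 inner ear proteins. Another 27 had other names, and 30 had no informative name, of which 27 carried a LOC symbol and 3 had no symbol. These groups were made after the genes were known. Ribosome assembly, the cell cycle and nucleotide metabolism together held more named genes than all other groups.

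Libraries held 4349807 to 16097718 counts, and 3 counts corresponded to 0.186 to 0.690 CPM. Across the 20329 genes that passed the low-count filter, replicate pools correlated at 0.986 to 0.991 except at 9 dpf (0.964) and 10 dpf (0.932). Of the 148 genes, all of which passed the filter, 15 had replicates at least 2-fold apart at 10 dpf, 5 had such replicates at 9 dpf and 3 at 8 dpf, and earlier stages held 1 such gene in all, at 6 dpf. The median log2 ratio of the second to the first replicate over these genes was -0.38 at 10 dpf and 0.29 at 9 dpf. In the mapping rates that the authors report, libraries of the odd days stand below those of the even days. The comparisons of 5 with 2 dpf and of 6 with 5 dpf cross this division and cannot be told apart from it, whereas 9 with 5 dpf and 10 with 6 dpf lie within one side each. A gene was called lower or higher when edgeR's test gave a log2 fold change of 1 or more in size and an adjusted p below 0.05.

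Together the 148 genes took 6.12 and 5.66% of all counts in the replicates of 2 dpf and 0.737 and 0.573% in those of 10 dpf. The 4 genes with the most counts at 2 dpf, LOC100335020, apoba, LOC108256960 and bhmt, made up 52.4% of the summed CPM at 2 dpf, so the sum follows few genes. The median gene kept 63.2% of its 2 dpf mean at 5 dpf and 22.4% at 10 dpf, and the highest share left at 10 dpf was 46.9%. At 10 dpf, 29 genes were under 10% of their 2 dpf mean. In whole fish, fewer cells of a type and less RNA per cell cannot be told apart.

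**Figure D1:**
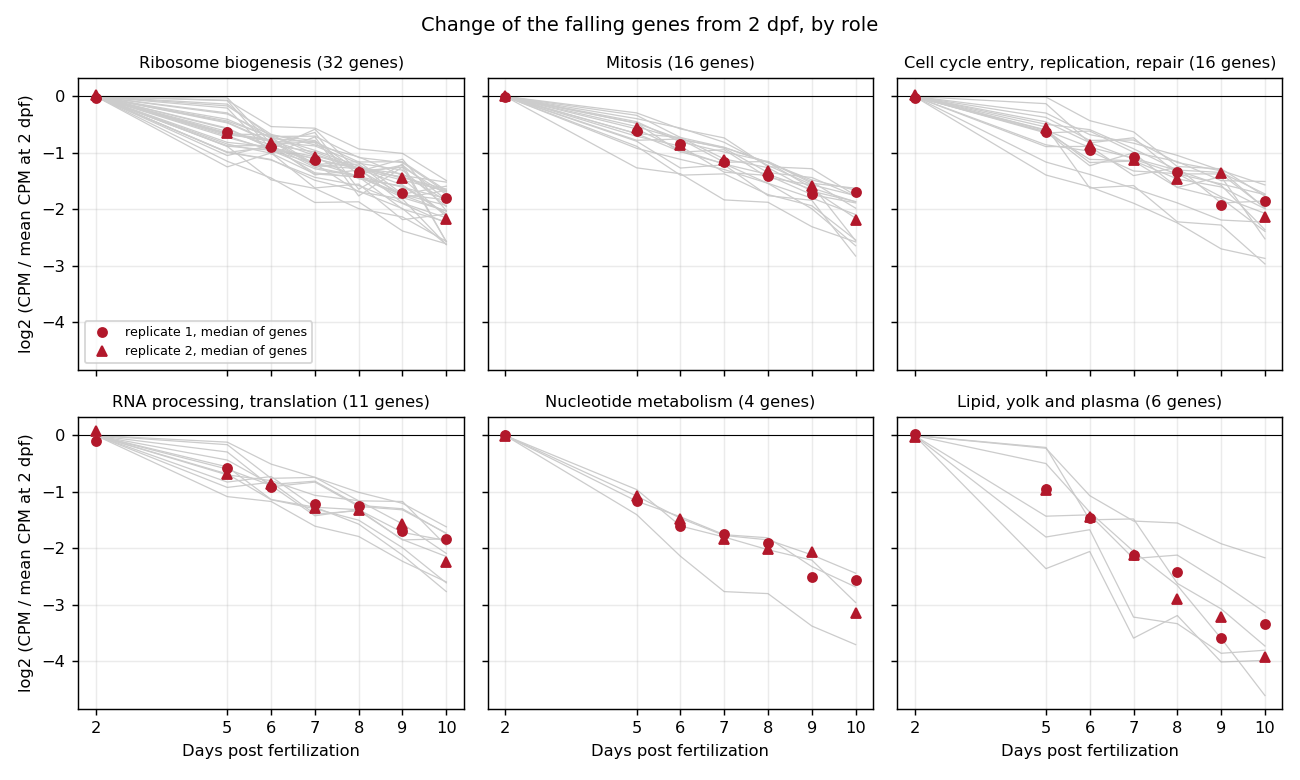
Log2 ratio of CPM to the mean CPM at 2 dpf (vertical axis) against days post fertilization (horizontal axis) for 6 role groups. Grey lines are stage means of single genes, and circles and triangles are the medians over the genes of a group in replicates 1 and 2. At 10 dpf the medians of the 32 ribosome assembly genes were 28.6 and 22.2% of the 2 dpf mean, and those of the 6 lipid, yolk and plasma genes were 10.1 and 6.61%.

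Ribosome assembly genes formed the largest named group and fell in a narrow band. Their median log2 ratio of means was -0.65 from 2 to 5 dpf, -0.94 from 5 to 9 dpf and -1.09 from 6 to 10 dpf. Over the whole series the ratio of 10 to 2 dpf lay between -2.62 (lyar) and -1.49 (rpp30). The group covers most steps of the assembly line, from polr1c, a subunit of RNA polymerases I and III, and the early small subunit factors krr1, utp11, nop14, emg1, wdr3 and wdr46 to the large subunit factors pes, mrto4, rrs1, gnl2 and gnl3.

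npm1a, one of the genes for nucleophosmin, a nucleolar histone and ribosome chaperone, had 209 and 194 CPM at 2 dpf, 198 and 198 CPM at 5 dpf, 115 and 110.4 CPM at 6 dpf, 132 and 127 CPM at 7 dpf, 65.5 and 63.4 CPM at 8 dpf, 81.7 and 94 CPM at 9 dpf and 38 and 29.6 CPM at 10 dpf. Its replicates did not overlap between 5 and 6 dpf, where the log2 fold change was -0.82 ± 0.17 (SE, adjusted p = 0.00681, quasi-likelihood test of edgeR, Benjamini-Hochberg adjusted). It was as high at 5 as at 2 dpf and did not fall evenly, since it was higher at 7 than at 6 dpf and higher at 9 than at 8 dpf in all replicates. rrs1, nifk and cdk4 shared this alternation of stage means, which 8 of the 148 genes showed at both places, 24 between 6 and 7 dpf and 13 between 8 and 9 dpf. The higher stages of the alternation are those with the lower reported mapping rate, and the part of the mapping in it was not tested. Rises to an even day occurred as well. The mean was higher at 6 than at 5 dpf in 24 of the 148 genes, at 8 than at 7 dpf in 22 and at 10 than at 9 dpf in 16. Of all genes tested, 54.2% had a lower mean at 7 than at 6 dpf and 43.8% at 9 than at 8 dpf.

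ncl encodes nucleolin, which binds precursor ribosomal RNA, and had 596 and 541 CPM at 2 dpf, 471 and 447 CPM at 5 dpf, 349 and 356 CPM at 6 dpf, 326 and 336 CPM at 7 dpf, 218 and 236 CPM at 8 dpf, 231 and 247 CPM at 9 dpf and 185 and 157 CPM at 10 dpf. The libraries of 2 and 5 dpf were all higher than those of 6 to 10 dpf. dkc1 encodes dyskerin, the pseudouridine synthase of box H/ACA particles, and its partner in these particles, gar1, was also in the set. dkc1 had 237 and 245 CPM at 2 dpf, 131 and 132 CPM at 5 dpf, 130.2 and 134 CPM at 6 dpf, 109 and 93.3 CPM at 7 dpf, 90.4 and 90.7 CPM at 8 dpf, 65.7 and 73.6 CPM at 9 dpf and 63.6 and 54.8 CPM at 10 dpf. It was level between 5 and 6 dpf, with a log2 fold change of 0.00 ± 0.16 (SE). gnl3, the nucleolar GTPase nucleostemin, had the same course, with means of 144 ± 12.3 CPM at 2 dpf, 72.2 ± 0.981 CPM at 5 dpf, 77.5 ± 7.57 CPM at 6 dpf and 35.1 ± 1.26 CPM at 10 dpf (SD, n = 2). pa2g4b, a growth-regulated factor that associates with ribosomes, was higher at 6 dpf (228 and 239 CPM) than at 5 dpf (199 and 212 CPM), but the change did not pass the test (adjusted p = 0.545, edgeR).

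Most of the other ribosome biogenesis genes, which the selection left out, were lower at the later stages too. A list of 175 tested ribosome biogenesis genes, written after the set was known, held the 32 genes of the set, whose direction was fixed by the selection, and 143 others. Of these 143, the log2 fold change was negative for 131 at 5 against 2 dpf (49.2% of all genes), 135 at 9 against 5 dpf (49.1%) and 141 at 10 against 6 dpf (52.1%). They had medians of -0.73, -0.64 and -0.80, against medians over all genes tested of 0.02, 0.02 and -0.03. All 4 ratios of the selection were below 1 for 100 of the 143 genes, beside 14.7% of all genes tested. At 10 against 6 dpf 31 of the 143 were called lower and 0 higher, beside 4.85% of all genes called lower and 8.2% called higher. At 5 against 2 dpf the counts were 44 lower and 1 higher (11.9 and 21.3% of all genes). At 9 against 5 dpf only 7 of the 143 were called lower and 0 higher (4.33 and 10.5% of all genes). The count called lower there is near the share of all genes.

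Mitosis genes followed with nearly the same medians, -0.62 from 2 to 5 dpf and -1.16 from 6 to 10 dpf on the log2 scale. ccnb1 encodes cyclin B1, the partner of Cdk1 that drives entry into mitosis, and fell furthest of the 16. It had 151 and 154 CPM at 2 dpf, 91 and 84.8 CPM at 5 dpf, 64 and 62.5 CPM at 6 dpf, 72 and 59.5 CPM at 7 dpf, 45.5 and 44.6 CPM at 8 dpf, 36.6 and 48.6 CPM at 9 dpf and 26.2 and 16.7 CPM at 10 dpf, and all libraries of 5 to 10 dpf were below those of 2 dpf. incenp and cdca8 encode inner centromere protein and borealin, and aurka encodes Aurora A, the kinase of spindle poles. Inner centromere protein and borealin are subunits of the chromosomal passenger complex, which corrects the attachment of chromosomes to the spindle. incenp had 139 and 120.4 CPM at 2 dpf, 98.6 and 98.7 CPM at 5 dpf, 92.4 and 83.4 CPM at 6 dpf, 77.6 and 70.1 CPM at 7 dpf, 49 and 62.1 CPM at 8 dpf, 40.4 and 47.3 CPM at 9 dpf and 44.1 and 32.6 CPM at 10 dpf. Of the 6 neighboring steps, its replicates overlapped only in that from 9 to 10 dpf. Between 5 and 6 dpf its log2 fold change was -0.17 ± 0.19 (SE) and did not pass the test (adjusted p = 0.557, edgeR).

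ttk encodes the spindle checkpoint kinase Mps1, and prc1a encodes a protein that bundles microtubules in the middle of the spindle in anaphase. ttk declined from 106 ± 2.23 CPM at 2 dpf to 73.4 ± 5.97 at 5 dpf and 29.1 ± 5.94 at 10 dpf (SD, n = 2), and prc1a from 121 ± 1.51 to 76.6 ± 10.1 and 33.2 ± 6.55 CPM. Kinetochore and cohesion genes (nuf2, ska3, cenpu, cenpw, sgo2 and pttg1, the last encoding securin) were in the same group, and their ratios of 10 to 2 dpf lay between -2.55 and -1.63 on the log2 scale. A list of 65 mitosis genes held 10 of the set and 55 others. Of the 55, 54 had a negative log2 fold change at 5 against 2 dpf and 54 at 10 against 6 dpf. Among the same 55, 28 (beside 11.9% of all genes) and 34 (beside 4.85%) were called lower, and 0 were called higher in either comparison. At 9 against 5 dpf the fall was weaker. There 48 of the 55 were negative, with a median of -0.51, and 8 were called lower (4.33% of all genes).

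At the step between 5 and 6 dpf, the 10 genes of this list that were in the set had a median log2 fold change of -0.22 and the 55 others one of 0.14. The levels at both days entered the selection, and this difference was not tested. Of the 51 genes of a list of DNA replication, 2 (fen1 and rfc2) were in the set. All 49 others had negative log2 fold changes at 5 against 2 dpf and at 10 against 6 dpf, with medians of -1.03 and -1.06, and 28 and 30 of them were called lower (11.9 and 4.85% of all genes). At 9 against 5 dpf 46 of the 49 were negative, with a median of -0.79, and 9 were called lower (4.33% of all genes).

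Among the genes of cell cycle entry, DNA replication and repair, fen1, the flap endonuclease that matures Okazaki fragments, had 133 and 162 CPM at 2 dpf, 84.6 and 74.9 CPM at 5 dpf, 75.4 and 84.6 CPM at 6 dpf, 58.7 and 53 CPM at 7 dpf, 61.7 and 61.8 CPM at 8 dpf, 36 and 43.9 CPM at 9 dpf and 46.5 and 35.4 CPM at 10 dpf. It stayed level from 5 to 6 dpf within the spread of its replicates and was a little higher at 8 than at 7 dpf. rfc2, a subunit of the clamp loader, had 54 ± 1.55 CPM at 2 dpf, 31.5 ± 3.76 CPM at 6 dpf and 13.7 ± 1.94 at 10 dpf (SD, n = 2). cdca7b and hells form, in mammals, a chromatin remodeling complex that acts on DNA methylation, and dnmt3ba encodes a de novo DNA methyltransferase. hells had 183 and 200.1 CPM at 2 dpf, 128 and 126 CPM at 5 dpf, 83.7 and 86.4 CPM at 6 dpf, 81.3 and 91.8 CPM at 7 dpf, 69.4 and 55.8 CPM at 8 dpf, 47.2 and 62.4 CPM at 9 dpf and 43.2 and 29.8 CPM at 10 dpf, and cdca7b was called lower at 6 than at 5 dpf, as 2.56% of all genes were (-1.09 ± 0.15, SE, adjusted p = 0.000678, edgeR).

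dnmt3ba had 439 and 458 CPM at 2 dpf, 199 and 202 CPM at 5 dpf, 168 and 177 CPM at 6 dpf, 143 and 148 CPM at 7 dpf, 119 and 123 CPM at 8 dpf, 98.1 and 98.6 CPM at 9 dpf and 94.8 and 96.8 CPM at 10 dpf, and replicates were within a few percent of each other at 9 and 10 dpf. nasp, a histone H1 and H3 chaperone, had means of 225 ± 35.2 CPM at 2 dpf and 56.6 ± 11.3 at 10 dpf (SD, n = 2). timeless and tipin, whose products travel with the replication fork as a pair, were both in the set, with log2 ratios of 10 to 2 dpf of -1.51 and -2.36. e2f5, a transcription factor of the E2F family, was one of 3 genes with the highest ratio of 5 to 2 dpf, with 9.53 and 10.6 CPM at 2 dpf and 9.66 and 10.4 CPM at 5 dpf. It had 2.78 and 3.15 CPM at 10 dpf, so its fall came after 5 dpf.

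**Figure D2:**
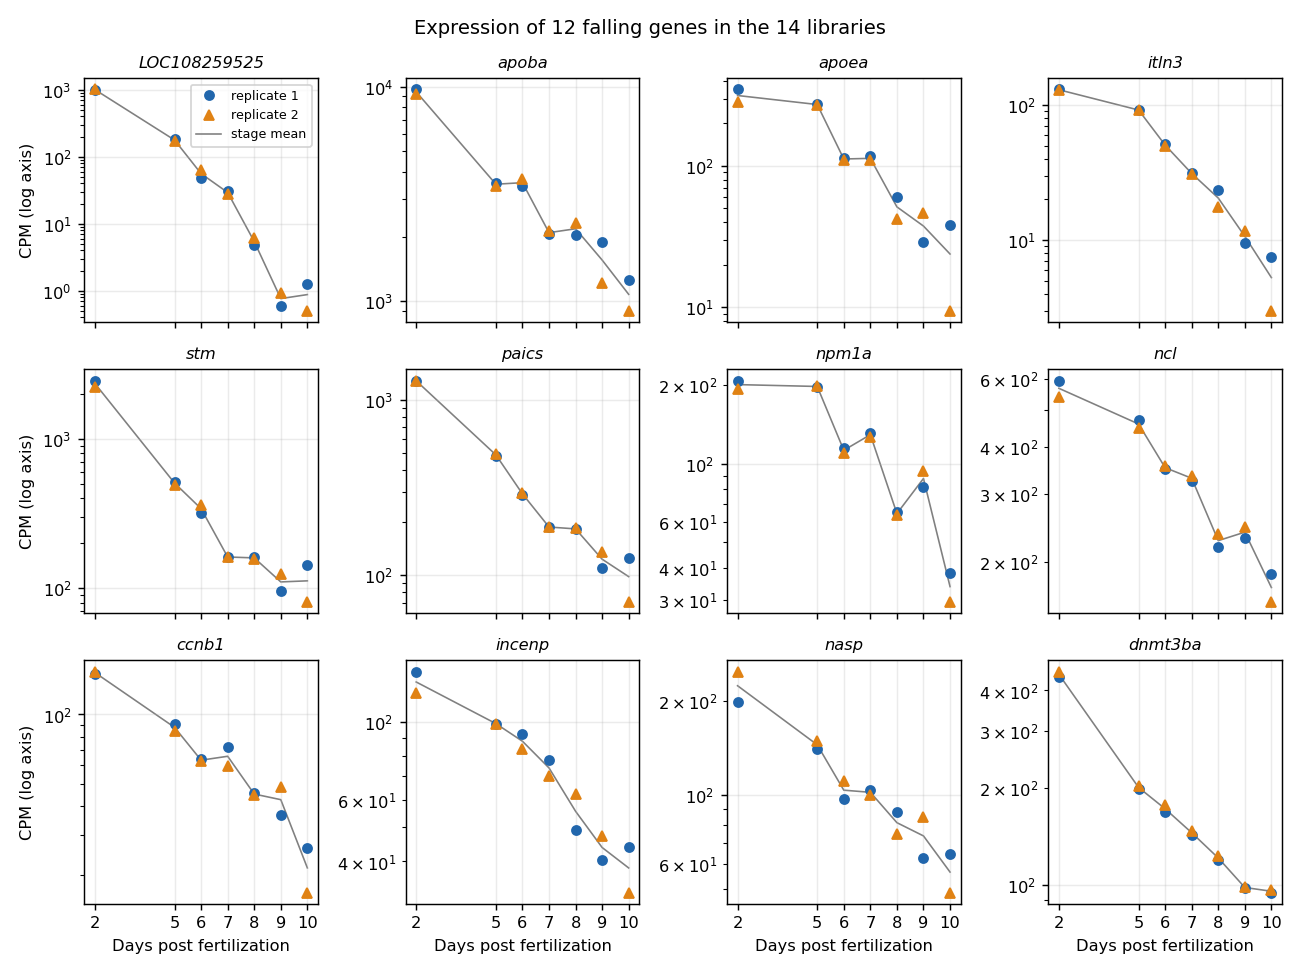
CPM on a log axis (vertical) against days post fertilization (horizontal) for 12 genes, with circles and triangles for replicates 1 and 2 and a grey line through the stage means. npm1a is flat from 2 to 5 dpf (201 ± 10.5 and 198 ± 0.112 CPM, SD, n = 2) and then alternates, whereas stm and apoba lost most of their CPM before 5 dpf.

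Genes of nucleotide metabolism and RNA processing were also in the set. paics and ppat encode enzymes of the purine pathway, ctps1a the synthase that makes CTP and nt5c3a a pyrimidine nucleotidase. paics, chosen for its size after the values were seen, had 1275 and 1286 CPM at 2 dpf, 479 and 491 CPM at 5 dpf, 286 and 295 CPM at 6 dpf, 187 and 189 CPM at 7 dpf, 183 and 185 CPM at 8 dpf, 110.4 and 137 CPM at 9 dpf and 126 and 70.7 CPM at 10 dpf. Its libraries of 2 dpf were more than 2-fold above those of 5 dpf, and its ratio of 10 to 2 dpf was -3.70 on the log2 scale. ppat lies next to paics in the Coco_2.0 annotation and had 102 and 99.9 CPM at 2 dpf, 42.1 and 48.3 CPM at 5 dpf and 18.2 and 13.3 CPM at 10 dpf. Of 20 other genes of purine and pyrimidine synthesis, listed with 3 of the set, 6 were called lower and 3 higher at 5 against 2 dpf, where 11.9% of all genes were lower and 21.3% higher. At 10 against 6 dpf 8 of the 20 were called lower and 0 higher, beside 4.85 and 8.2% of all genes.

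Of the 11 genes of RNA processing and translation, snrpe and snrpd2 encode Sm proteins, the ring on which spliceosomal small nuclear RNAs are assembled, and snrpa encodes the U1 protein A. snrpe, also taken after its values were seen, had 214 and 271 CPM at 2 dpf, 162 and 168 CPM at 5 dpf, 109 and 112 CPM at 6 dpf, 105 and 96.7 CPM at 7 dpf, 85 and 78.5 CPM at 8 dpf, 42.8 and 68.9 CPM at 9 dpf and 46 and 25.4 CPM at 10 dpf. Its 9 and 10 dpf libraries were all below its libraries of 2 to 8 dpf. A list of 23 Sm and small nuclear ribonucleoprotein genes held 3 of the set. All 20 others had negative log2 fold changes at 10 against 6 dpf (median -0.91), and 6 of them were called lower and 0 higher, beside 4.85 and 8.2% of all genes. A list of RNA binding and growth in the embryo held 5 genes of the set and 29 others, of which 11 were called lower and 3 higher at 5 against 2 dpf (11.9 and 21.3% of all genes). At 10 against 6 dpf 3 of these 29 were called lower and 0 higher (4.85 and 8.2% of all genes). A list of chromatin and histones held 3 genes of the set and 29 others. Of these 29, 10 were called lower and 1 higher at 5 against 2 dpf, and 6 lower and 0 higher at 10 against 6 dpf, beside the same shares of all genes.

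**Figure D3:**
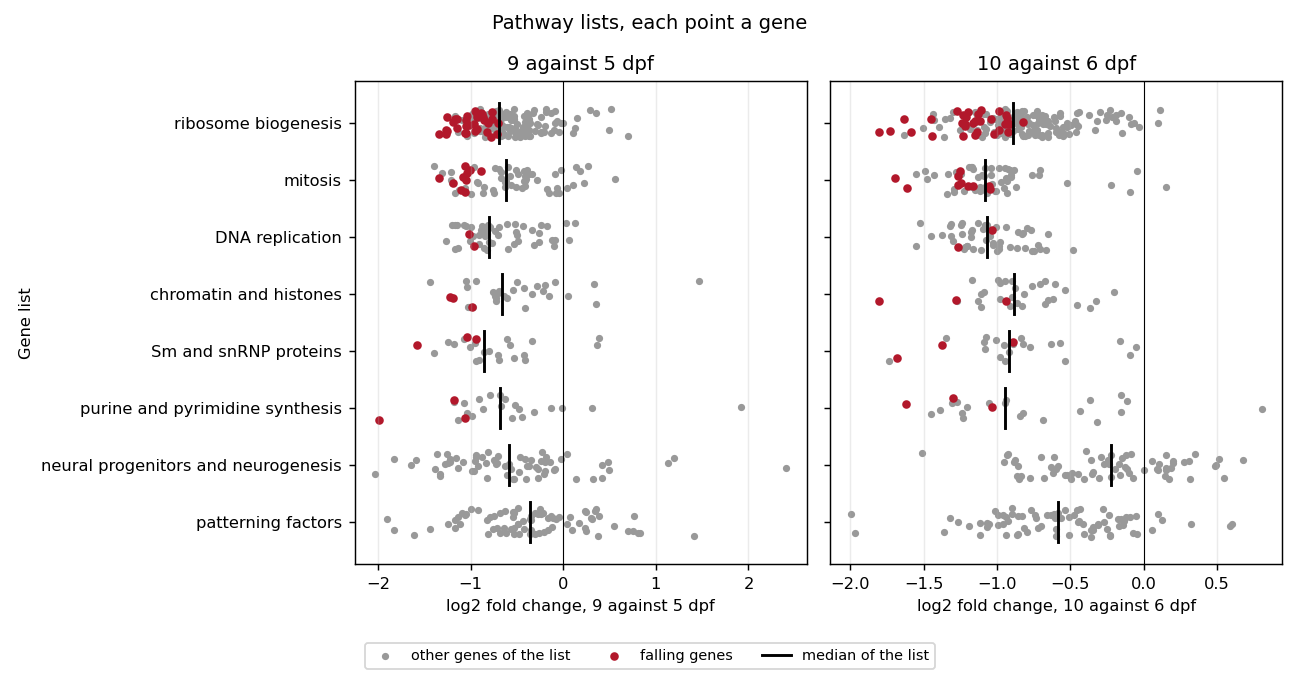
Log2 fold change of each gene of 8 lists (rows) at 9 against 5 dpf (left) and at 10 against 6 dpf (right). Red points are genes of the set, grey points the other genes of the list, and black bars the list medians, which for ribosome biogenesis were -0.70 and -0.89. Neural progenitor and patterning genes had no member in the set, with medians of -0.23 and -0.58 at 10 against 6 dpf.

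Lists of developmental genes had no member in the set. This held for 67 neural progenitor and neurogenesis genes, 79 patterning factors, 19 muscle precursor genes, 61 matrix genes and 15 lens and eye genes, and for these lists only. Of these genes 7, 2, 0, 1 and 0, in this order, met the conditions of the selection with a score below 0. The set held 148 of the 20329 genes tested, so few members could fall in lists of this size. Their absence is therefore not read as a trait of developmental genes. gdf10a was in the 150 before it was set aside, and the set held ebf2, a transcription factor of neuronal differentiation, and a collagen gene, col28a2a, which were on none of the lists. ebf2 had 58.5 and 56.7 CPM at 2 dpf, 15.6 and 17.8 CPM at 5 dpf, 11.3 and 11.1 CPM at 6 dpf and 4.03 and 5.92 CPM at 10 dpf, and col28a2a had 381 and 392 CPM at 2 dpf, 81.8 and 75.4 CPM at 5 dpf, 87 and 82.9 CPM at 6 dpf and 25.3 and 14.7 CPM at 10 dpf, both genes being taken after their values were seen.

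At 5 against 2 dpf, 15 of the 67 neural progenitor genes were called lower and 16 higher, and 9 of the 79 patterning factors lower and 10 higher, beside 11.9% of all genes lower and 21.3% higher. At 9 against 5 dpf 16 neural progenitor genes were called lower and 2 higher, and 11 patterning factors lower and 1 higher, beside 4.33 and 10.5% of all genes. At 10 against 6 dpf 1 neural progenitor gene was called lower and 0 higher, whereas 8 patterning factors were called lower and 0 higher, beside 4.85 and 8.2% of all genes. The log2 fold change of the last comparison was negative for 73 of the 79 patterning factors (52.1% of all genes).

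Markers of muscle, neurons, lens and cartilage were higher at 5 than at 2 dpf. In what follows the summed CPM of a marker list is given as the lower and the higher replicate. For 10 skeletal muscle markers, 9 of them tested, it was 953 and 1109 CPM at 2 dpf, 13432 and 13690.2 CPM at 5 dpf and 27428 and 29858 CPM at 10 dpf, with all 9 tested called higher at 5 than at 2 dpf and 4 at 9 than at 5 dpf. For 11 neuron markers, 10 of them tested, it was 96.4 and 112 CPM at 2 dpf, 532 and 563 CPM at 5 dpf, 537 and 555 CPM at 9 dpf and 583 and 958 CPM at 10 dpf. For 6 lens markers it was 10.3 and 15.3 CPM at 2 dpf, 746 and 926 CPM at 5 dpf, 676 and 1014 CPM at 9 dpf and 947 and 1065 CPM at 10 dpf. Of the neuron and lens markers 9 and 6 were called higher at 5 than at 2 dpf and 0 at 9 than at 5 dpf. Of all genes tested, 21.3% were called higher at 5 than at 2 dpf and 10.5% at 9 than at 5 dpf. With 10 and 6 markers tested, 0 calls at 9 against 5 dpf are near that share and nothing is read from them.

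The sum of 10 cartilage markers was 1144 and 1148 CPM at 2 dpf, 8100.1 and 8137 CPM at 5 dpf, 4132 and 5101 CPM at 6 dpf, 7554 and 7697 CPM at 7 dpf and 1140.0 and 4837 CPM at 10 dpf. Of these markers 9 were called higher at 5 than at 2 dpf (21.3% of all genes) and 3 lower at 6 than at 5 dpf (2.56%). The sum of 6 red blood cell markers was 2654 and 3366 CPM at 2 dpf, 775 and 798 CPM at 5 dpf, 181 and 187 CPM at 7 dpf and 262 and 455 CPM at 10 dpf. That of 9 liver markers was 24744 and 26498 CPM at 2 dpf, 20346 and 20729.7 CPM at 5 dpf and 9386 and 12249 CPM at 10 dpf, and that of 4 hatching gland markers 361 and 393 CPM at 2 dpf, 252 and 262 CPM at 5 dpf and 192 and 257 CPM at 10 dpf. No marker that was found was at 0 in every library, but several lists were found only in part. Of the listed symbols, 6 of 15 for red blood cells, 9 of 15 for liver and 4 of 12 for hatching gland were found. The hatching enzyme LOC108259527, set aside by name, had rank 1 by score, so the sum of the 4 markers does not stand for the hatching gland. The part of the changes in marker sums in the falls of the 148 genes was not tested.

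Within the set, genes of lipid transport, yolk and plasma proteins fell further than ribosome assembly and mitosis genes. The 6 genes had a median log2 ratio of 10 to 2 dpf of -3.77, compared with -1.99 for the 32 ribosome assembly genes and -1.93 for the 16 mitosis genes. No test of this difference was made, because the same ratios chose the genes. The order did not hold outside the set. There the medians of 15 other apolipoprotein and lipoprotein assembly genes were -0.36 at 5 against 2, -0.31 at 9 against 5 and -0.06 at 10 against 6 dpf. Those of the 143 other ribosome biogenesis genes were -0.73, -0.64 and -0.80. apoba encodes apolipoprotein B, the structural protein of lipoproteins made by liver, intestine and, in zebrafish, the yolk syncytial layer. It had 9697 and 9210.4 CPM at 2 dpf, 3567 and 3455 CPM at 5 dpf, 3428 and 3711 CPM at 6 dpf, 2053 and 2124 CPM at 7 dpf, 2035 and 2319 CPM at 8 dpf, 1897 and 1216 CPM at 9 dpf and 1251 and 904 CPM at 10 dpf. Its fall came in plateaus, with a log2 fold change of 0.02 ± 0.24 between 5 and 6 dpf (SE, adjusted p = 0.973, edgeR) and overlapping replicates between 7 and 8 dpf.

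apoea encodes an apolipoprotein E. It had 348 and 283 CPM at 2 dpf, 275 and 269 CPM at 5 dpf, 115 and 109 CPM at 6 dpf, 117 and 109 CPM at 7 dpf, 60.6 and 41.9 CPM at 8 dpf, 28.7 and 46.3 CPM at 9 dpf and 38.1 and 9.44 CPM at 10 dpf, and its replicates at 10 dpf were 4-fold apart. It kept most of its 2 dpf level at 5 dpf, unlike apoba. LOC108272670 lies next to apoea in the Coco_2.0 annotation and had 402 and 329 CPM at 2 dpf, 61.8 and 62.2 CPM at 5 dpf, 76.7 and 99.8 CPM at 6 dpf and 15.7 and 12 CPM at 10 dpf. It was one of 11 genes of the set whose replicates at 6 dpf were both above those at 5 dpf. Of all genes tested, 36.9% were higher in this way. fetub, the plasma protease inhibitor fetuin-B, and plin3, a coat protein of lipid droplets, were among the same 11, and fetub had 3159 and 2579.7 CPM at 2 dpf, 589 and 531 CPM at 5 dpf, 668 and 713 CPM at 6 dpf, 233 and 244 CPM at 7 dpf and 161 and 202 CPM at 10 dpf.

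itln3 encodes an intelectin, a secreted lectin that binds microbial sugars. It had 129.7 and 129 CPM at 2 dpf, 91.3 and 91.7 CPM at 5 dpf, 51 and 49.8 CPM at 6 dpf, 31.6 and 30.7 CPM at 7 dpf, 23.4 and 17.6 CPM at 8 dpf, 9.62 and 11.8 CPM at 9 dpf and 7.59 and 3.02 CPM at 10 dpf, and it fell at each of the 6 neighboring steps of stage means. A list of apolipoproteins and lipoprotein assembly held 3 genes of the set and 15 others. At 10 against 6 dpf 1 of the 15 was called lower and 1 higher (4.85 and 8.2% of all genes), with a median of -0.06. At 5 against 2 dpf 3 were called lower and 1 higher (11.9 and 21.3% of all genes). At 9 against 5 dpf 2 were called lower and 2 higher (4.33 and 10.5%). With 15 genes, nothing is read from these counts.

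Inner ear proteins gave an early and a late fall. stm encodes starmaker, which in zebrafish is a matrix protein of the otoliths, the ear stones. It had 2457 and 2238 CPM at 2 dpf, 518 and 494 CPM at 5 dpf, 321 and 361 CPM at 6 dpf, 162 and 162 CPM at 7 dpf, 163 and 156 CPM at 8 dpf, 96.2 and 124 CPM at 9 dpf and 143 and 81.3 CPM at 10 dpf. All of its libraries of 5 dpf were more than 4-fold below those of 2 dpf. otos2 encodes an otospiralin, a small protein of the inner ear in mammals, and had 184 and 183 CPM at 2 dpf, 174 and 176 CPM at 5 dpf, 74.5 and 85.3 CPM at 6 dpf, 60.1 and 57.2 CPM at 7 dpf, 42 and 39.8 CPM at 8 dpf, 30.3 and 32.3 CPM at 9 dpf and 20.4 and 12.8 CPM at 10 dpf. It was level between 2 and 5 dpf and was called lower at 6 than at 5 dpf (-1.14 ± 0.20, SE, adjusted p = 0.00267, edgeR). ecrg4b, next to otos2 in the annotation and encoding augurin, a secreted peptide precursor, had 48.9 and 52.6 CPM at 2 dpf, 42.8 and 38.7 CPM at 5 dpf, 20.5 and 15.6 CPM at 6 dpf and 5.38 and 1.01 CPM at 10 dpf. The genes of this paragraph were taken after their values were seen.

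Metabolic and transport genes included bhmt, which encodes betaine-homocysteine methyltransferase, an enzyme of methionine synthesis in liver and kidney. bhmt had 4428 and 3906 CPM at 2 dpf, 1008 and 996 CPM at 5 dpf, 742 and 841 CPM at 6 dpf, 433 and 437 CPM at 7 dpf, 236 and 259.9 CPM at 8 dpf, 171 and 143 CPM at 9 dpf and 116 and 152 CPM at 10 dpf and was 31.2-fold lower at 10 than at 2 dpf. Of the 4 transporters, slc39a5 and slc30a8 carry zinc. slc39a5 had 101 and 103 CPM at 2 dpf, 20.5 and 18.7 CPM at 5 dpf, 16.6 and 15.7 CPM at 6 dpf, 4.25 and 5.33 CPM at 7 dpf, 3.48 and 3.62 CPM at 8 dpf, 2.96 and 3.36 CPM at 9 dpf and 2.88 and 2.14 CPM at 10 dpf. Its replicates did not overlap at any of the 6 neighboring steps. The last 2 gaps were small, however, with 3.48 against 3.36 CPM from 8 to 9 dpf and 2.96 against 2.88 CPM from 9 to 10 dpf. They rest on few counts, so nothing is read from them. nts encodes neurotensin, a peptide of gut endocrine cells and neurons, and had 98.7 and 76 CPM at 2 dpf, 13.8 and 13.3 CPM at 5 dpf, 6.20 and 8.89 CPM at 6 dpf, 2.95 and 3.85 CPM at 7 dpf, 2.67 and 1.52 CPM at 8 dpf, 0.888 and 2.43 CPM at 9 dpf and 0.288 and 1.26 CPM at 10 dpf. It was among the 5 genes with the lowest score. Its first value at 10 dpf rests on 3 counts, and its replicates were at least 2-fold apart at 9 and 10 dpf.

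acp5a encodes tartrate-resistant acid phosphatase, an enzyme of osteoclasts and macrophages. It had 1357 and 1452 CPM at 2 dpf, 570.1 and 572 CPM at 5 dpf, 182 and 191 CPM at 6 dpf, 147 and 143 CPM at 7 dpf, 130.5 and 125 CPM at 8 dpf, 102 and 109.8 CPM at 9 dpf and 56.9 and 29 CPM at 10 dpf and was called lower at 6 than at 5 dpf (-1.62 ± 0.27, SE, adjusted p = 0.00184, edgeR). klhl41a, a kelch protein of skeletal muscle, was at 24.9 and 25 CPM at 2 dpf and at 24.6 and 25 CPM at 5 dpf, and declined to 12.9 and 8.06 CPM at 10 dpf. The other gene with one of the 3 highest ratios of 5 to 2 dpf was LOC108258110, which had 24.7 and 23.3 CPM at 2 dpf and 21.2 and 26.5 CPM at 5 dpf.

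The deepest falls of single genes were among those without an informative name. LOC108259525 had the lowest score of the 148 and had 1003 and 1011 CPM at 2 dpf, 186 and 169 CPM at 5 dpf, 48.6 and 63.4 CPM at 6 dpf, 30.8 and 27.8 CPM at 7 dpf, 4.78 and 6.07 CPM at 8 dpf, 0.592 and 0.934 CPM at 9 dpf and 1.25 and 0.503 CPM at 10 dpf. Its values at 10 dpf rest on 13 and 4 counts and were 807-fold and 2001-fold below the 2 dpf mean, and 5 of the 6 neighboring steps, all but the last, had no overlap between replicates. LOC108256960 had 8017 and 6034 CPM at 2 dpf, 313 and 336 CPM at 5 dpf, 34.9 and 38.2 CPM at 6 dpf, 40.1 and 41.2 CPM at 7 dpf, 26.3 and 28.6 CPM at 8 dpf, 4.89 and 9.90 CPM at 9 dpf and 9.89 and 2.77 CPM at 10 dpf, with a 21.7-fold lower mean at 5 than at 2 dpf. Between 6 and 7 dpf it did not fall, and at 9 and 10 dpf its replicates were at least 2-fold apart.

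LOC108275253 had 255 and 245 CPM at 2 dpf, 22.5 and 24.1 CPM at 5 dpf, 4.34 and 4.75 CPM at 6 dpf, 2.13 and 4.15 CPM at 7 dpf and 1.43 and 0.467 CPM at 8 dpf and at most 1.04 CPM at 9 and 10 dpf, where it rested on few counts. LOC100335020, with one of the 3 highest CPM at 5 dpf, had 10847 and 9504 CPM at 2 dpf, 4676 and 4663 CPM at 5 dpf, 3213 and 3245 CPM at 6 dpf, 2023 and 1947 CPM at 7 dpf, 2123 and 2601 CPM at 8 dpf, 1527 and 1483 CPM at 9 dpf and 1243 and 1082 CPM at 10 dpf, and was higher at 8 than at 7 dpf in both replicates. Over the 30 genes without an informative name, the median log2 ratio of 10 to 2 dpf was -2.94 and the range -10.17 to -1.09. As a group they did not fall furthest, since the medians were -3.93 for the inner ear, -3.77 for the lipid, yolk and plasma and -3.73 for the transporter genes.

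**Figure D4:**
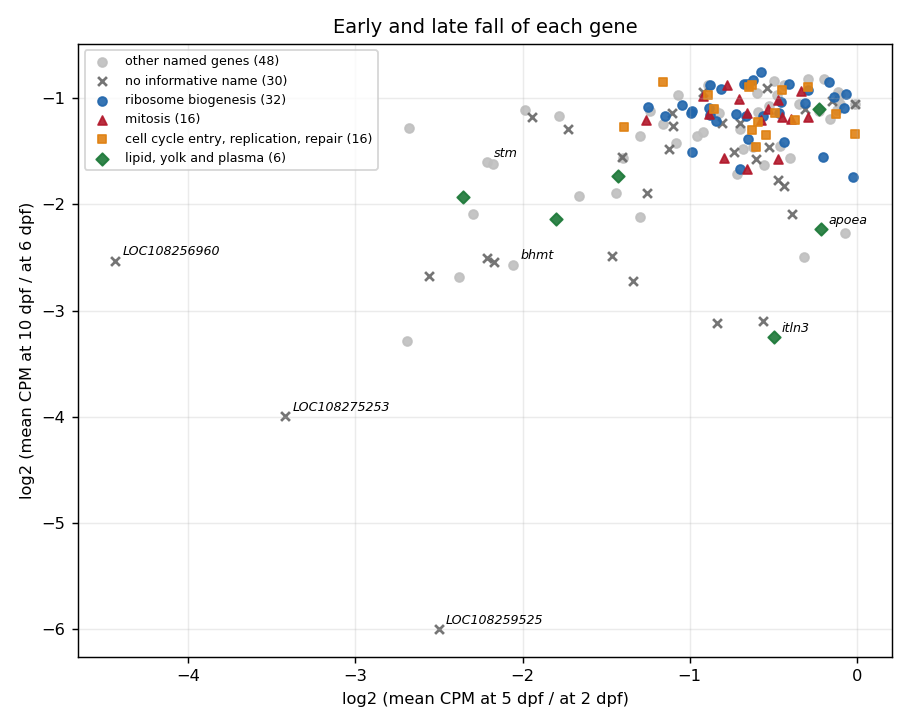
Log2 ratio of mean CPM at 5 to 2 dpf (horizontal) against that at 10 to 6 dpf (vertical), one point per gene, with symbols for 4 role groups. Ribosome assembly and cell cycle genes lie close together near medians of -0.65 and -1.09. The points furthest to the left (LOC108256960) and to the bottom (LOC108259525) are genes with no informative name. Named genes such as bhmt, stm and itln3 were also among the deep falls.

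The early part of the fall differed among genes. From 2 to 5 dpf, 14 genes fell to 25% or less of their 2 dpf mean and 14 kept 90% or more. In the median gene, 30.2% of the log2 fall from 2 to 10 dpf had taken place by 5 dpf, with 34.5% for ribosome assembly, 27.5% for mitosis and 40.6% for the 4 nucleotide metabolism genes. At 5 against 2 dpf 63 of the 148 genes were called lower and 0 higher, beside 11.9% of all genes called lower and 21.3% called higher. The selection had fixed the direction of this ratio but not its size, so the absence of higher calls was given in advance. Of all genes tested, only 49.2% had a negative log2 fold change. The 2 shares called lower are therefore not alike, and nothing is read from their difference. TMM normalization set log2 fold changes 0.21 lower than ratios by library total in this comparison, so that a gene flat in CPM had a negative fold change.

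The step from 5 to 6 dpf was not itself scored, but its levels entered the selection, and a minimum at 5 dpf with a fall from 5 to 7 dpf favors genes that are lower on the day between. The counts of this step are therefore a description and not independent of the selection. The mean was lower at 6 dpf for 124 of the 148 genes, beside 49.5% of all genes tested, and the median log2 fold change was -0.32, beside 0.00 for all genes. Replicates did not overlap and were lower for 115 genes (35.4% of all genes) and higher for 11 (36.9% of all genes). At the threshold 13 genes were called lower (2.56% of all genes) and 0 higher (7.34% of all genes), and 52 were lower with an unadjusted p under 0.05 (15.8% of all genes). Those with the largest fold changes were LOC108256960 (-3.16 ± 0.43, SE), LOC108269094 (-2.59 ± 0.34) and LOC108275253 (-2.37 ± 0.27). No ribosome assembly or mitosis gene was among the 13, and their log2 ratios of means at this step lay between -0.86 and 0.25 and between -0.51 and 0.02.

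Over 4 days of larval life, 107 genes were called lower at 9 than at 5 dpf (4.33% of all genes lower, 10.5% higher) and 126 at 10 than at 6 dpf (4.85% lower, 8.2% higher), and 0 were called higher. These comparisons are made of the ratios that chose the genes, so the counts are a description of the selection. Among the 32 ribosome assembly genes, 15 and 23 were called lower, and 13 and 14 of the 16 mitosis genes. Without the first replicate at 9 dpf the count at 9 against 5 dpf was 66, and without the second replicate at 10 dpf the count at 10 against 6 dpf was 65.

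**Figure D5:**
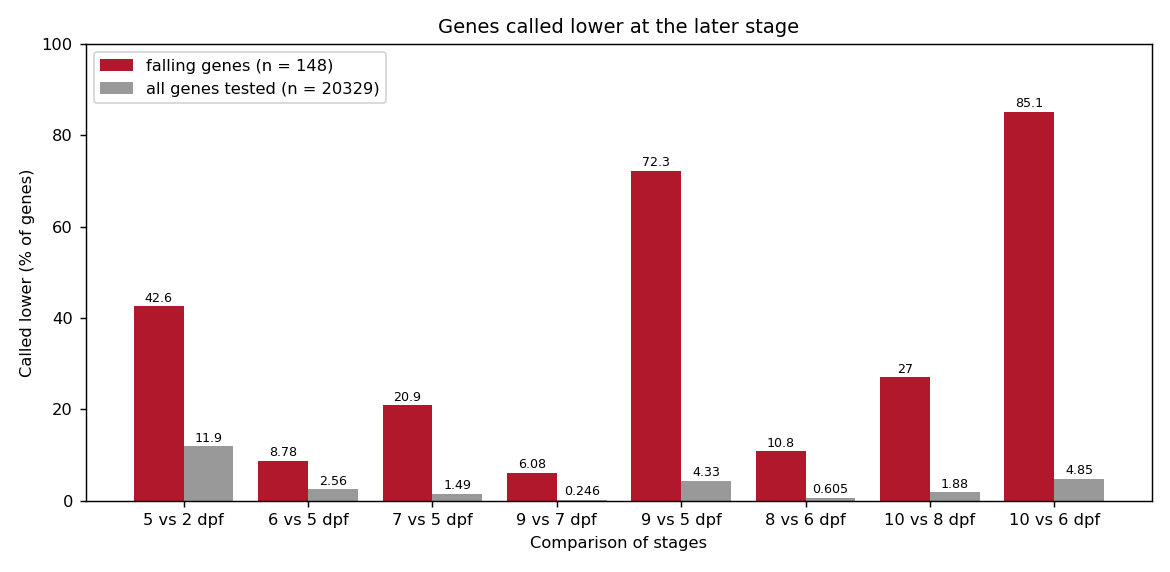
Percent of genes called lower at the later stage (vertical axis, from 0) in 8 comparisons of stages, for the 148 falling genes (red) and all 20329 genes tested (grey). At 6 against 5 dpf, a step that was not scored but whose levels entered the selection, the share was 8.78% against 2.56%.

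Single steps of 2 days were smaller. The count called lower was 31 at 7 against 5 dpf (1.49% of all genes), 9 at 9 against 7 dpf (0.246%), 16 at 8 against 6 dpf (0.605%) and 40 at 10 against 8 dpf (1.88%). Each of these counts moved by over 1.5 times when one library was left out. At 7 against 5 dpf the count was 18 or 19 without either replicate of 7 dpf, and at 8 against 6 dpf it was 9 without either replicate of 6 dpf. At 9 against 7 dpf it was 2 or 3 without either replicate of 7 dpf and 4 without the first replicate of 9 dpf. The last step was the least stable, with 3 and 9 genes without the first and second replicates of 8 dpf and 83 and 14 without the first and second replicates of 10 dpf.

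Replicates gave the same steps for most genes. In 137 of the 148 genes both later libraries were below both earlier ones in all 4 scored steps, beside 4.73% of all genes tested, and this count too follows from the selection. The selection was therefore repeated in one replicate of each stage and read in the other. Of 150 genes chosen in the first replicates, 134 (89.3%) were lower at all 4 steps in the second replicates, beside 24.9% of the 5476 genes that met the minimum and the 2 dpf condition there. With the replicates exchanged, 137 of 150 (91.3%) were lower at all 4 steps, beside 24% of 5405 genes. The genes chosen from one replicate shared 80 and 87 genes with the set of 148. Both replicates of a stage share its day and its side of the division in mapping rate. These counts therefore describe only how far the pools of a stage agree.

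Between neighboring days, 82 of the 148 genes had a lower mean at each of the 6 steps. The mean was lower in 124 genes from 6 to 7 dpf (54.2% of all genes), 126 from 7 to 8 dpf (50.6%), 135 from 8 to 9 dpf (43.8%) and 132 from 9 to 10 dpf (45.7%), counts that follow in part from the scored steps of 2 days. Some members lay side by side in the genome, and the number of pairs that random placement would give was not worked out. Of 142 genes placed on chromosomes of Coco_2.0, 10 formed 5 neighboring pairs, paics with ppat, apoea with LOC108272670, otos2 with ecrg4b, cenpw with trmt11 and rpp30 with kif20bb. cenpw (a centromere protein) and trmt11 (a tRNA methyltransferase) ended at -2.55 and -1.62 on the log2 scale of 10 to 2 dpf, and rpp30 (a subunit of RNase P) and kif20bb (a kinesin) at -1.49 and -1.77. Since the strand setting of the counting was not given, reads of overlapping neighbors cannot be told apart.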

How the data were processed

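Ribosomal RNA was depleted from the RNA of 14 pools of whole fish before library construction. The authors trimmed reads with Trimmomatic 0.36, mapped them with STAR 2.7.0 and deposited raw counts per gene from HTSeq-count, without normalization. Reads were mapped to the published channel catfish reference genome, whose annotation version and the strand setting of the counting are not given in the sources used here. The deposited table has 23235 lines, and lines with the same gene identifier were summed to 23231 genes. Fish of each stage were divided at random between its pools, and no fish was sampled at more than 1 stage, so replicate numbers give no pairing. With 2 pools per stage, p-values measure the spread between pools only.

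Stages were compared by edgeR 4.0.16 under R 4.3.3 (TMM, the low-count filter of edgeR, quasi-likelihood test, all 14 libraries, 1 mean per stage), with Benjamini-Hochberg adjustment over 20329 genes. A call needed an adjusted p below 0.05 and a log2 fold change of 1 or more in size. SE is approximate, the log2 fold change over the root of the F statistic. Ratios of means use CPM by library total. DESeq2 1.42.0, RLE, no filter, a replicate block, a test of fold changes beyond 1 on the log2 scale (glmTreat) and leaving out libraries were alternatives. On simulated data for 9 against 5 dpf, edgeR recovered 98.5% of 200 genes changed by 2 on the log2 scale with 7 false calls among 19959 genes, and DESeq2 98.5% with 3 among 20329. The simulation gave all genes and libraries the same spread and changed only genes with enough counts. It therefore does not cover smaller changes or the wider spread between replicates at 9 dpf. Values of 3 counts cover counting error only. Tables used pandas 2.3.3 and numpy 2.4.6 in Python 3.11.15, and plots matplotlib 3.10.9.

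The members and lists were chosen with earlier results of these data known. The role groups and the lists of ribosome biogenesis, purine and pyrimidine synthesis, Sm proteins and apolipoproteins were written after the members were seen. Genes were named by rule, which took up to 4 members of each list by CPM at 5 dpf, the 5 lowest scores, the 3 highest CPM at 5 dpf, the 3 highest and 3 lowest ratios of 5 to 2 dpf and 3 genes on each side of the limit. Other named genes were taken after their values were seen. Promoter and protein sequences were not used here.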

Additional observations from a re-analysis of the deposited data

How the results depend on the processing

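The counts of falling genes called lower were most sensitive to the threshold. Tested against a log2 fold change of 1, the count was 32 at 5 against 2 dpf, 3 at 6 against 5 dpf, 36 at 9 against 5 dpf, 31 at 10 against 6 dpf, 5 at 7 against 5 dpf, 1 at 9 against 7 dpf, 2 at 8 against 6 dpf and 0 at 10 against 8 dpf. With each library left out in turn, the counts ranged from 66 to 130 at 9 against 5 dpf, 65 to 144 at 10 against 6 dpf, 18 to 24 at 7 against 5 dpf, 2 to 8 at 9 against 7 dpf, 9 to 11 at 8 against 6 dpf and 3 to 83 at 10 against 8 dpf. Without both libraries of 10 dpf, an alternative chosen after seeing the data, the count at 9 against 7 dpf was 15. DESeq2, RLE and no filter moved no count of calls by over 1.5 times. A lone library was assumed to vary like the other stages. With a replicate block, the counts were 63, 13, 106, 126, 31, 9, 15 and 33, in the order of the first sentence of counts. The numbers do not pair the pools, since same-numbered deviations from the stage means correlated between -0.61 and 0.29, over 0.1 in 2 of 21 pairs of stages. That count leaves out negative values. The largest in size were -0.61 for 9 and 10 dpf, -0.29 for 8 and 9 dpf and 0.29 for 8 and 10 dpf. What the pools of these days shared was not tested.

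Of the 148 genes, 114 were still chosen with TMM scaling, 126 with a minimum of 20 CPM at 5 dpf and 111 to 146 with a library left out. Of 459 values of named genes under the alternatives, 0 reversed and 102 moved by over 1 SD. All of them were log2 fold changes in the longest larval comparison within odd days or within even days. Both comparisons are made of the ratios that chose the genes. The selection had therefore fixed the direction of these values, and nothing is read from the absence of reversals. Depth limits LOC108275253 and LOC108269094, the 2 genes of the set with under 3 counts in a library, both at 10 dpf.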
